A study of Saccharomyces cerevisiae with 6 samples.

Results

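Transcripts for the enzymes of glycolysis, alcoholic fermentation and the pentose phosphate pathway were followed in budding yeast treated with azinomycin B, a DNA-crosslinking natural product of Streptomyces. The genes were chosen by name, 33 in all: 16 for glycolysis, 7 for fermentation and 10 for the pentose phosphate pathway. A probe set belonged to a gene where its annotation gave that symbol alone, which found 35 probe sets for 32 of the genes, among the 5173 genes with a tested probe set. TDH2 had no probe set of its own and was read only through probe sets shared with TDH1 and TDH3. The 6 arrays comprised 3 controls, 2 arrays for the dose of 100 µg/ml and a single array for 10 µg/ml. Strain and genotype are not given in the labels. Cultures were grown in YPD at 30 °C and 250 rpm until the optical density was 1.0, and were collected 6 h later, with azinomycin B in a little ethanol present for those hours or absent. Ethanol is not mentioned for the controls, and the lower dose equals the ED50 of 10 µg/ml stated in the labels. Each treated array has a control of the same label, and the pairs, which rest on the label alone, are called A100, B100 and 10 below. A control named A100, B100 or 10 received no drug. Nothing in the labels says that the arrays came from separate cultures or days, so the tests measure only the spread between these samples. In RNA from a whole culture, a difference in all cells and a difference in some of the cells cannot be told apart.

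Glycolysis splits glucose into pyruvate, and yeast in rich glucose medium turns most of that pyruvate into ethanol through pyruvate decarboxylase and alcohol dehydrogenase. The pentose phosphate pathway branches off at glucose 6-phosphate: its oxidative arm makes NADPH and its other arm makes ribose 5-phosphate for nucleotides. Many of these steps have isoenzymes, one made mainly while glucose is plentiful (HXK2, for example) and another made more once glucose runs low or under stress (HXK1, GLK1, GND2, TKL2).

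The deposited values were 1 MAS5 signal per probe set and array, and differences between arrays are given as log2(signal + 16), where 1 is a doubling. Signals of different probe sets are not comparable, so each gene is compared only with itself across arrays. The arrays were not alike in ways that the treatment groups do not follow. The A100 and B100 controls correlated at 0.9795 over the 6956 tested probe sets and had 176 of them at least 2-fold apart, whereas the A100 control and the control labelled 10 correlated at 0.9029 with 1371 at least 2-fold apart. The treated A100 array had 1167 probe sets at least 2-fold from its control, against 189 for the B100 pair and 313 for the 10 pair. Of the 32 genes, 19 were among the 696 tested probe sets (1 in 10) with the highest mean signal, and the highest signals on the treated arrays (15073.8 to 17425.5) were below those on the controls (20106.3 to 28213.5). The same counts over these 696 bright probe sets are therefore given beside the gene lists.

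No gene of the 3 pathways passed the test for either dose. At 100 µg/ml against the 3 controls limma called 0% of the tested probe sets at an adjusted p under 0.05, and none of the 32 genes was under 0.05 before adjustment (232 probe sets were). The lowest adjusted p among the genes was 0.957. Control 10, 1 of these 3 controls, belongs to the other label series. With the label as a block, 3 of the 32 genes were under 0.05 before adjustment at 100 µg/ml and 0 were called. The glycolysis median at this dose was 0.04 against the 3 controls and -0.09 with the label as a block. At 10 µg/ml the share called was again 0%, with 291 probe sets under 0.05 before adjustment. HXK1, PFK1, TPI1, PGK1 and ENO2, 5 glycolysis genes, were among these with fitted differences of -1.37 (SE 0.347), -1.41 (SE 0.417), -0.68 (SE 0.270), -0.71 (SE 0.275) and -1.16 (SE 0.359) and a common adjusted p of 0.761. The single array at this dose was assumed to vary like the others, and 2 of the 3 controls in the fit belong to the other label series. Against the control labelled 10 alone, the same genes were at -0.95, -0.90, -0.81, -0.58 and -0.97 (adjusted p = 0.998), and the glycolysis median was -0.21 in place of -0.47. Over the 3 pairs together, with the label as a block, the share called was 0% and 560 probe sets were under 0.05 before adjustment. TDH3, PGK1 and GND2 were the 3 of these in the pathways, at -0.47 (SE 0.129), -0.40 (SE 0.142) and -0.58 (SE 0.237), with an adjusted p of 0.584. The difference between the doses, each against the control of its own label series, gave 0 calls in limma, 234 probe sets under 0.05 before adjustment, and 1 such gene among the 32.

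**Figure D1:**
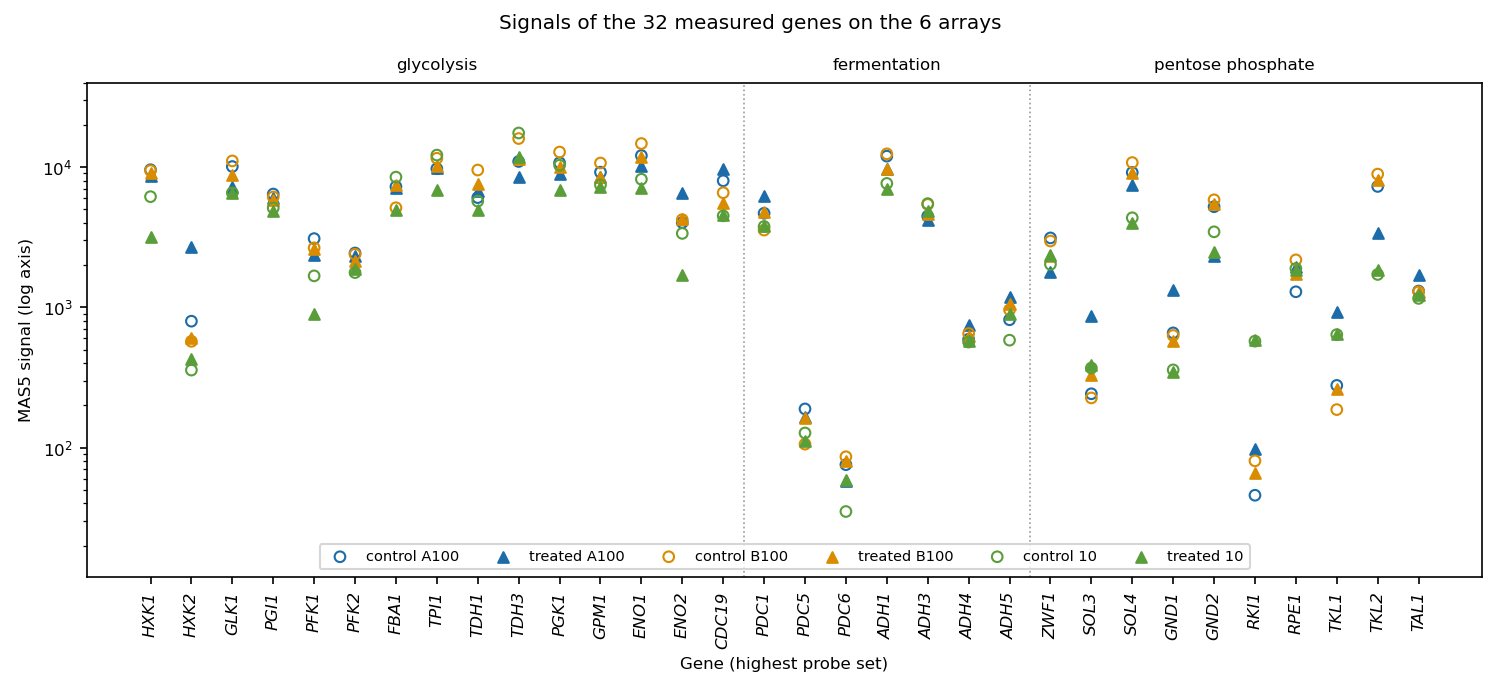
MAS5 signal (log axis) of the highest probe set of each of the 32 measured genes, grouped by pathway. Open circles are controls and triangles treated arrays, coloured by label; for HXK2, SOL3, GND1 and TKL1 the treated A100 array stands above the other 5, and for RKI1 both arrays labelled 10 stand above the other 4.

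Within the pairs, 26 of the 32 genes stayed within 2-fold in all 3. In the A100 pair 4 genes were at least 2-fold higher on the treated array (HXK2, SOL3, GND1 and TKL1), where 10.7% of all tested probe sets were. GND2 and TKL2 were at least 2-fold lower there, 2 genes beside a background of 6.12%. None of the 32 genes reached 2-fold in the B100 pair, where 2.06% of probe sets were that much higher and 0.661% that much lower. The 10 pair likewise had 0 of the 32, beside 2.1% higher and 2.4% lower. A single pair has no replicate, so these counts describe pairs of arrays and carry no test.

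The pair values of the glycolysis list were small and mostly negative. Its 15 measured genes had medians of -0.10, -0.19 and -0.21 in the A100, B100 and 10 pairs, beside 0.03, 0.06 and 0.08 over all tested probe sets and -0.21, -0.13 and -0.08 in the 696 bright probe sets. Under quantile normalization the glycolysis medians became 0.06, 0.01 and 0, so their sign depends on the scaling. Scaling to a common median moved the median of all probe sets in the A100 pair to -0.17, a shift of the same order. Fermentation genes had medians of -0.08, -0.05 and 0.02. The 10 pentose phosphate genes had medians of 0.48, -0.13 and 0.02, and in the A100 pair they ranged from -1.17 to 1.77. Values were negative in all 3 pairs for 12 of the 32 genes, or 37.5%, beside 12.2% of all tested probe sets and 32.3% of the bright ones. They were positive in all 3 pairs for 5 genes, HXK2, PDC1, ADH5, SOL3 and TKL1, or 15.6% beside 22% and 7.33%.

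**Figure D2:**
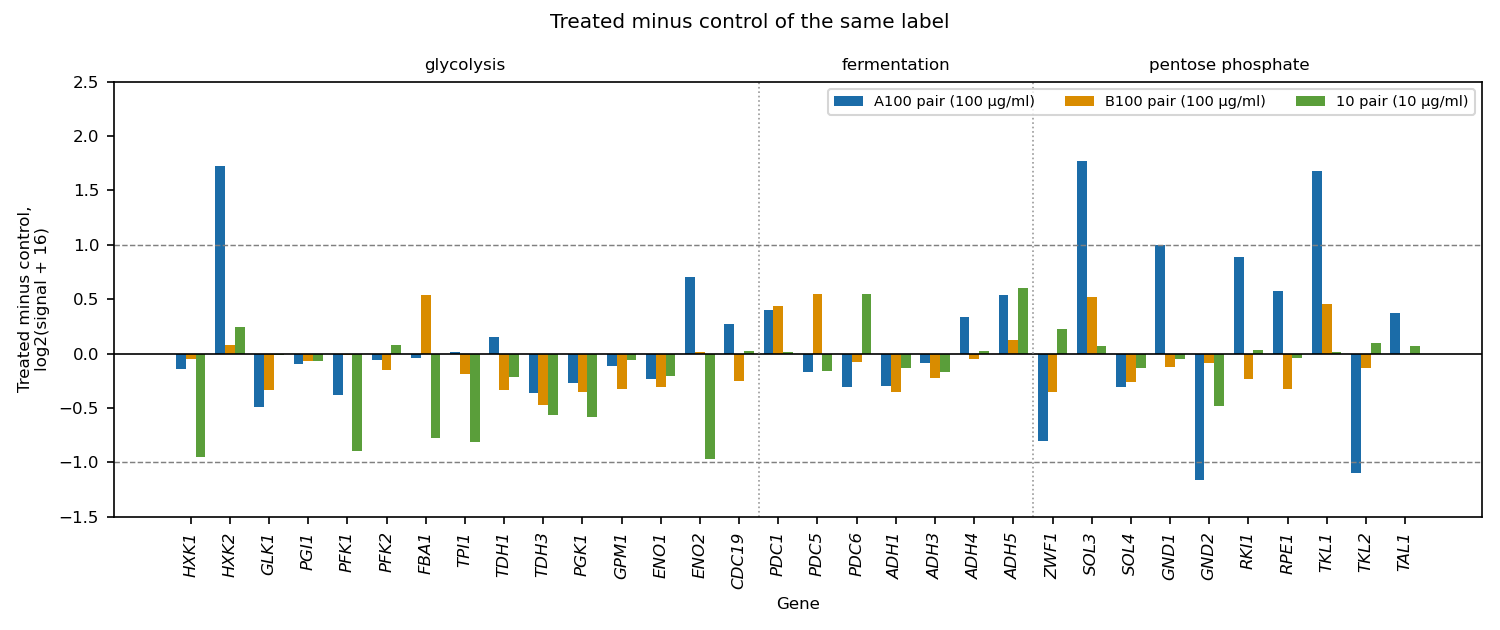
Treated minus control of the same label on the log2(signal + 16) scale for the 32 genes, 1 bar per pair (A100 and B100 at 100 µg/ml, 10 at 10 µg/ml), with dashed lines at a 2-fold difference. The bars past the dashed lines belong to the A100 pair: HXK2, SOL3, GND1 and TKL1 above, GND2 and TKL2 below.

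Glucose enters glycolysis through 3 kinases that phosphorylate it: the hexokinases HXK1 and HXK2 and the glucokinase GLK1. HXK2 (probe set 5260_at), the main enzyme during growth on glucose, gave 796.3 on control and 2676.1 on treated A100, 572 and 604.5 in the B100 pair, and 356.8 and 425.4 in the 10 pair. The treated A100 array was alone in its high value, 3.31-fold above its control, while the B100 and 10 pairs differed by 1.06-fold and 1.18-fold. The fit for 100 µg/ml against all 3 controls, of which control 10 was the lowest, gave 1.20 with an SE of 0.657. HXK1 (5307_at) gave 9571.4 and 8696, 9438.9 and 9138.2, and 6152.2 and 3167.8 in the same order. Its lowest array was treated 10, at -0.95 from its control, while the A100 and B100 pairs were at -0.14 and -0.05. GLK1 (6937_at) gave 10088.4 and 7168.7, 11062.6 and 8748.9, and 6546.4 and 6500.2. Treated values lay below their controls at -0.49 and -0.34 in the pairs at 100 µg/ml and at -0.01 in the 10 pair, but control 10 was itself below both of the treated arrays at 100 µg/ml. The difference between HXK2 and HXK1 in their treated-minus-control values was 1.87, 0.12 and 1.20 in the A100, B100 and 10 pairs, and between HXK2 and GLK1 it was 2.22, 0.42 and 0.25.

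Phosphofructokinase, the committing step of glycolysis, is built from the subunits encoded by PFK1 and PFK2. PFK1 (4760_at) gave 3089.3 on control and 2371.6 on treated A100, 2655.4 and 2623.9 for B100, and 1675.9 and 891.9 for 10. Both arrays labelled 10 were below the other 4, and treated 10 was 1.86-fold below its own control. PFK2 (9432_at), the partner subunit, gave 2439.4 and 2340.9, 2389.4 and 2144.5, and 1768.5 and 1863.4, with pair values of -0.06, -0.15 and 0.07. The subunits differed by -0.97 in the 10 pair and by -0.32 and 0.14 in the others. PGI1, the isomerase upstream of this step, had a narrow range, from 4860.7 on treated 10 to 6422.5 on control A100, with pair values of -0.10, -0.07 and -0.07.

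The lower part of glycolysis was represented mostly by bright probe sets with small pair values. FBA1 (aldolase) and TPI1 (triose phosphate isomerase) were at -0.77 and -0.81 in the 10 pair, and between -0.19 and 0.54 in the other pairs. Signals of TPI1 ran from 6916.4 on treated 10 to 12173.6 on control 10, so the lowest and the highest array were that pair. For TDH3, the major glyceraldehyde-3-phosphate dehydrogenase, treated arrays were below their controls in each pair, at -0.36, -0.47 and -0.56. Its signals were 10958.2 and 8526.5, 15971.5 and 11491.7, and 17498.7 and 11830, so that control A100 lay below the treated B100 and treated 10 arrays and the groups overlapped. TDH1, its isoenzyme, was at 0.16, -0.33 and -0.21, and a probe set shared by TDH2 and TDH3 was at 0.11, -0.37 and -0.39.

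PGK1, phosphoglycerate kinase, was the 1 gene of the 32 for which both arrays at 100 µg/ml lay below all 3 controls, an arrangement found for 7.58% of tested probe sets. Its signals were 10733.1 and 8916.7 for A100, 12798.1 and 9997 for B100, and 10300.4 and 6868 in the 10 pair. All 3 treated arrays were below all 3 controls, an arrangement that was not counted over all tested probe sets. Negative values in all 3 pairs, a weaker condition, held for 32.3% of the bright probe sets. Of the bright probe sets, 95 of 696 had both arrays at 100 µg/ml below the controls. The opposite arrangement, both above all 3 controls, held for ENO2, PDC1 and ADH5, 3 of 32 genes beside 12.3% of tested probe sets and 17 of the 696 bright ones. ENO2 (enolase II, 4334_i_at) gave 4025.5 and 6564.1, 4217.7 and 4255.5, and 3364.7 and 1709.3. Treated A100 was its highest array and treated 10 its lowest, with pair values of 0.70, 0.01 and -0.97. ENO1 (enolase I, 4729_i_at) had values of -0.24, -0.31 and -0.20, and a probe set shared by both enolase genes had -0.09, -0.14 and -0.25. GPM1 (phosphoglycerate mutase) lay at -0.12, -0.33 and -0.06 and CDC19, the main pyruvate kinase, at 0.27, -0.25 and 0.02.

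Fermentation genes had small pair values. PDC1, the major pyruvate decarboxylase, gave 4683.4 and 6184.2, 3553.1 and 4814.3, and 3770 and 3817.1 in the A100, B100 and 10 pairs. Treated exceeded control by 0.40 and 0.44 in both pairs at 100 µg/ml and by 0.02 in the 10 pair, and the fit for 100 µg/ml gave 0.46 with an SE of 0.257, which did not pass the test. The treated B100 value of 4814.3 was close to the control A100 value. PDC5 and PDC6, the minor pyruvate decarboxylase genes, stayed between 105.8 and 188.6 and between 35 and 86, with pair values from -0.31 to 0.55 and no common direction.

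ADH1, the alcohol dehydrogenase that makes most of the ethanol, gave 11965.9 and 9743.6, 12423.2 and 9726.5, and 7643.6 and 6980.3. Treated was below control in each pair, at -0.30, -0.35 and -0.13, but control 10 lay below both treated arrays at 100 µg/ml. The mitochondrial ADH3 had pair values of -0.08, -0.22 and -0.17. ADH5 had 0.54, 0.13 and 0.60, from signals of 815.4 and 1189.7, 958.9 and 1048.6, and 583.1 and 893.7. The higher ADH5 value in each pair was the treated one, although treated 10 was below control B100. ADH4 (5257_at) was at 0.34, -0.05 and 0.03, and a second probe set of this gene was below the filter on low signals.

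The oxidative arm of the pentose phosphate pathway showed its wide values in the A100 pair. ZWF1, the glucose-6-phosphate dehydrogenase of the first step, gave 3124.6 and 1782, 2969.4 and 2321.9, and 2025.8 and 2371.6, or -0.80, -0.35 and 0.23. Its direction differed between the pairs at 100 µg/ml and the 10 pair. For the next step, 6-phosphogluconolactonase, SOL3 (4368_at) gave 241.8 and 862.4, 225.9 and 330.5, and 368.9 and 388.2. Treated A100 stood apart at 3.41-fold its control, against 1.43-fold in the B100 pair and 1.05-fold in the 10 pair; treated B100 was below both arrays labelled 10. SOL4 (4768_at), the other lactonase gene, gave 9151.8 and 7391.4, 10770.7 and 9008.8, and 4348.9 and 3972.7. Its pair values of -0.31, -0.26 and -0.13 were small beside the gap between the 2 arrays labelled 10 and the other 4.

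The 6-phosphogluconate dehydrogenase genes had opposite signs in the A100 pair. GND1 (4343_at), the major isoenzyme, gave 657.1 and 1330.9, 630 and 578.1, and 358 and 346.3. The treated A100 signal was 2.001-fold its control, and the other pairs were at -0.12 and -0.05. GND2 (4732_at), the minor isoenzyme, gave 5216.9 and 2316, 5841.1 and 5492.6, and 3454.2 and 2465. Treated A100 and treated 10 were its lowest arrays, 2.24-fold and 1.40-fold below their controls, while the B100 pair differed by 1.06-fold. GND1 minus GND2 was 2.17 in the A100 pair and -0.03 and 0.44 in the others.

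Transketolase, which shuffles carbon units in the non-oxidative arm, also had isoenzyme genes of opposite sign in the A100 pair. TKL1 (7694_at), the major isoenzyme, gave 277.5 and 926, 186.5 and 261.8, and 638.6 and 643.2. Treated A100 was 3.21-fold above its control, the B100 pair differed by 1.37-fold and the 10 pair by 1.01-fold, and both arrays labelled 10 lay above every A100 or B100 array except treated A100. TKL2 (7253_g_at), the minor isoenzyme, gave 7274.9 and 3400.4, 8911.8 and 8106.5, and 1715 and 1835.7. Treated A100 lay between the other arrays of its series and those labelled 10, with pair values of -1.09, -0.14 and 0.10, and the other TKL2 probe sets gave -0.60 and -1.34 in the A100 pair. The difference between TKL1 and TKL2 was 2.78, 0.59 and -0.09 in the A100, B100 and 10 pairs.

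RPE1 (epimerase) and TAL1 (transaldolase) had values between -0.32 and 0.58 in the pairs. RKI1 (8477_at), the isomerase that makes ribose 5-phosphate, gave 45.7 and 98.1, 80.4 and 66.1, and 573.7 and 588.2. The A100 and B100 pairs differed in direction, at 0.89 and -0.23, and the 10 pair was at 0.04, while the arrays labelled 10 stood far above the rest whether treated or not.

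**Figure D3:**
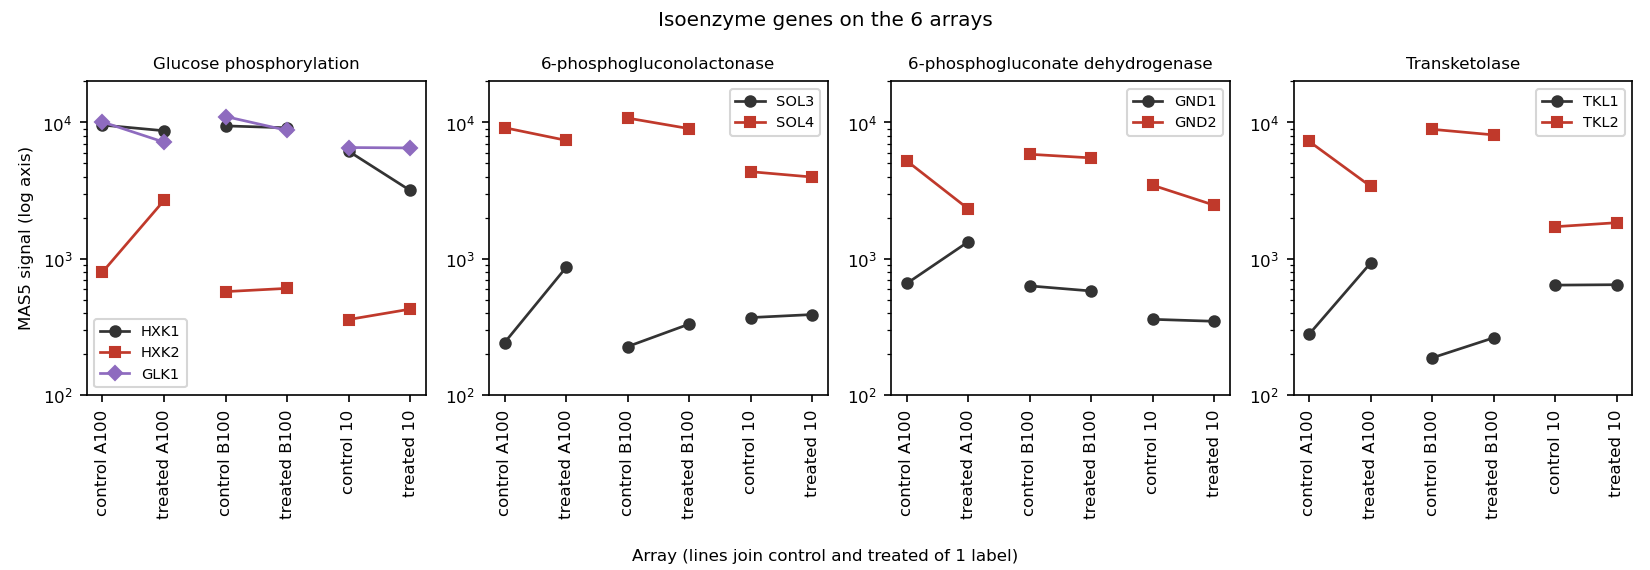
MAS5 signal (log axis) of the genes for 4 steps with isoenzymes on the 6 arrays; a line joins control and treated of 1 label. Each of these 4 steps holds a gene at least 2-fold apart in the A100 pair, and the other isoenzyme groups are not shown. HXK2, SOL3, GND1 and TKL1 are higher on treated than on control A100 (3.31-fold, 3.41-fold, 2.001-fold and 3.21-fold). Of their partner genes, GND2 and TKL2 are at least 2-fold lower. HXK1, GLK1 and SOL4 are at -0.14, -0.49 and -0.31 (log2), beside a median of -0.21 in the 696 bright probe sets. For HXK2, SOL3, GND1 and TKL1 the lines of the B100 and 10 pairs are flatter. Heights of different genes cannot be compared.

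The comparison that did give calls was between label series, not doses. The 2 arrays labelled 10 were set against the 4 labelled A100 or B100 with treatment as a term. The dose of 10 µg/ml was given in 1 series only, and the fit had 1 treatment term for both doses. A difference between the doses would therefore enter this estimate, and in this fit it cannot be told apart from a difference between series. In limma 360 probe sets were higher and 360 lower at label 10, 5.18% and 5.18% of those tested (6 higher and 67 lower of the 696 bright ones), and 5 of the 32 genes passed: RKI1 was higher, and HXK1, PFK1, SOL4 and TKL2 were lower. RKI1 was 6.91-fold higher, at 2.79 (SE 0.273, adjusted p = 0.00593). TKL2 was 3.64-fold lower, at -1.86 (SE 0.365, adjusted p = 0.0277), and its other probe sets gave -1.94 and -2.21 (adjusted p = 0.0133 and 0.0230). SOL4 differed by -1.11 (SE 0.186, adjusted p = 0.0193), PFK1 by -1.12 (SE 0.228, adjusted p = 0.0296) and HXK1 by -1.06 (SE 0.230, adjusted p = 0.0342).

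These 5 calls depended on the arrays used, as did the 720 calls over all 6956 tested probe sets. Those 720 became 20 without control A100, 59 without control B100, 231 without treated B100 and 2033 without treated A100. Without control A100, control B100 or treated B100 the single gene still called was RKI1, without control 10 or treated 10 none was, and without treated A100 12 were. Among the controls alone, a comparison of 1 array against 2, limma called 0 probe sets (1484 under 0.05 before adjustment), and RKI1 differed by 2.93 (adjusted p = 0.0919), TKL2 by -2.22 (adjusted p = 0.130), SOL4 by -1.19 (adjusted p = 0.131), PFK1 by -0.77 (adjusted p = 0.206) and HXK1 by -0.63 (adjusted p = 0.240). The direction of all 5 held in each alternative that included the gene: RKI1 stayed between 2.25 and 3.04, TKL2 between -2.22 and -1.51, SOL4 between -1.21 and -1.01, PFK1 between -1.47 and -0.77, and HXK1 between -1.49 and -0.63. For HXK1 and PFK1 the gap among controls was smaller than the fitted one (-1.06 and -1.12), the treated 10 array being lower still.

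Non-overlap of the label series was frequent among the genes. Both arrays labelled 10 lay below the other 4 for 17 of the 32 genes, beside 18.9% of tested probe sets and 167 of the 696 bright ones. Of these, 11 were among the 15 glycolysis genes, all but FBA1, TPI1, TDH3 and PGK1. Both lay above the other 4 for RKI1 alone, 1 of 32, beside 19.6%. The median of label 10 minus labels A100 and B100 was -0.47 for glycolysis, with 14 of 15 values negative, -0.32 for fermentation and -0.20 for the pentose phosphate genes, beside 0.02 for all tested probe sets and -0.03 for the bright ones. These medians stayed negative under both other scalings, at -0.35, -0.41 and -0.22 after quantile normalization and at -0.57, -0.41 and -0.30 after scaling to a common median. Without treated 10 they were -0.41, -0.14 and -0.37, and without control 10 the pentose phosphate median was -0.36. Without probe sets numbered 4500 to 6500 the glycolysis median was -0.36 and the pentose phosphate median -0.05, and without those numbered 7600 to 8500 the latter was -0.41.

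**Figure D4:**
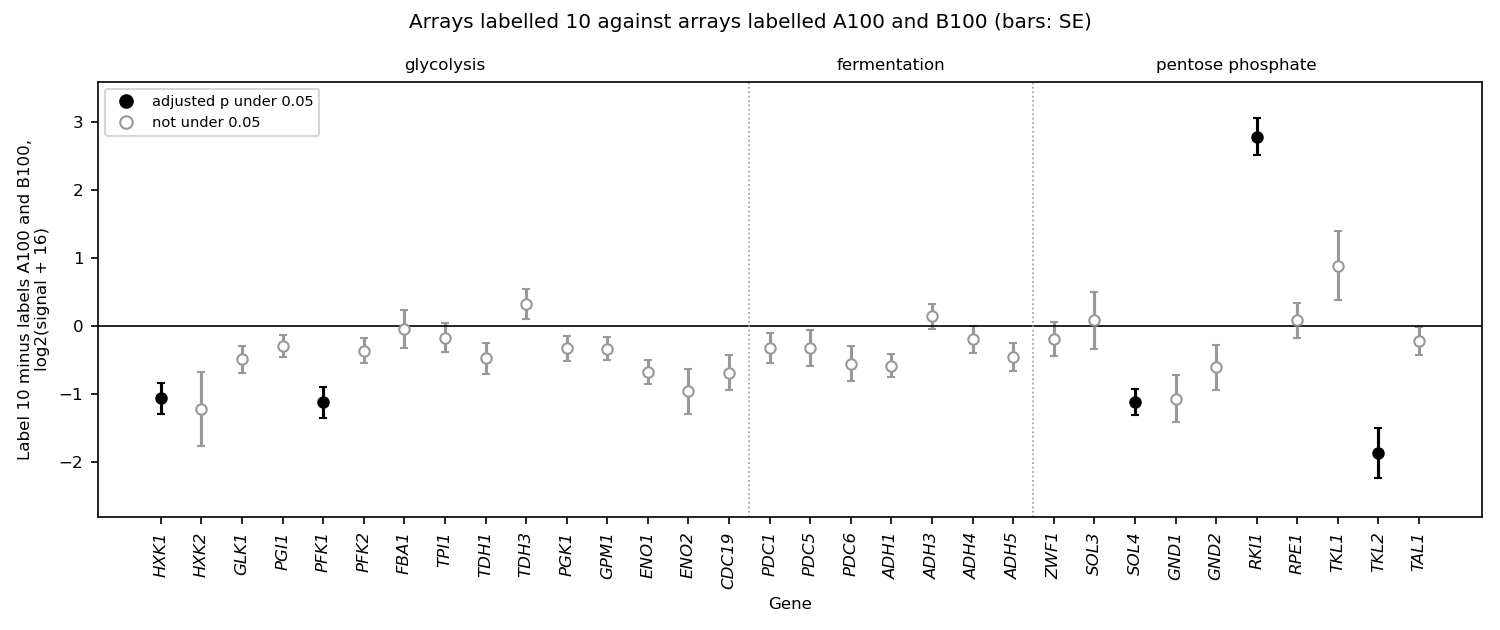
Difference between the arrays labelled 10 and those labelled A100 and B100 on the log2(signal + 16) scale, with treatment in the fit; points are limma estimates, bars their SE, filled where the adjusted p was under 0.05. RKI1 lies at 2.79, and HXK1, PFK1, SOL4 and TKL2 between -1.06 and -1.86; 14 of the 15 glycolysis genes lie below 0.

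Some values of the 10 pair and the A100 pair followed the number of the probe set in the array's design. Values below -0.8 in the 10 pair made up 10.5% of tested probe sets numbered 4500 to 6500 (169 of 1604) and 2.43% elsewhere (130 of 5352). HXK1, PFK1 and TPI1, with values of -0.81 to -0.95 in that pair, are numbered in this range. The range holds 10 of the 32 genes, with a median of -0.34 in the 10 pair and 7 negative values, against a median of -0.02 and 12 negative values among the other 22. ENO2 and FBA1 had values of -0.97 and -0.77 in that pair outside it, in stretches where 2.02% and 4.33% of probe sets were below -0.8. In the A100 pair, values below -2 made up 5.48% of probe sets numbered 7600 to 8500 and 0.596% elsewhere. RKI1 and TKL1 are numbered in that range but were higher on treated A100, at 0.89 and 1.68. The part of this pattern in the values of these genes was not tested. Without treated 10, the label difference was -0.63 for HXK1 (adjusted p = 0.230) and -0.77 for PFK1 (adjusted p = 0.203).

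**Figure D5:**
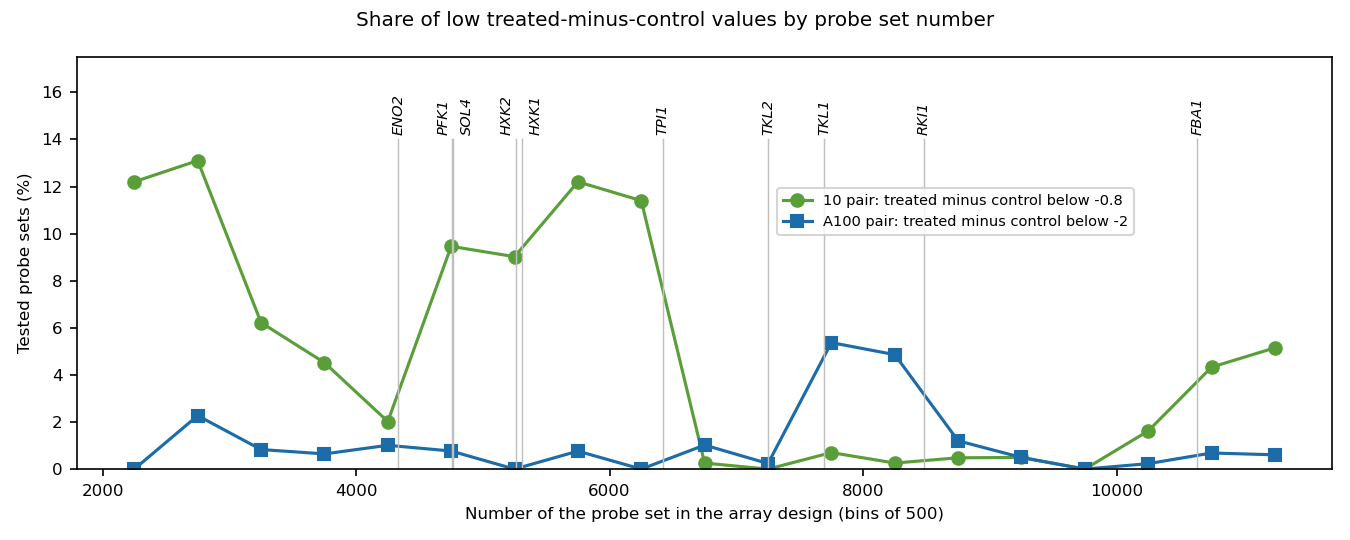
Percentage of tested probe sets with a low treated-minus-control value, in bins of 500 probe set numbers, for the 10 pair (below -0.8) and the A100 pair (below -2); grey lines mark the numbers of 10 pathway genes. The 10 pair is between 9.02% and 12.2% in the 4 bins from 4500 to 6499, where HXK1, HXK2, PFK1, SOL4 and TPI1 lie, and it is also high below 3500.

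The wider pathway was read from 28 measured genes for related enzymes and 11 regulators. For neither dose did limma call any of them, beside the 0% of all probe sets given above. At 10 µg/ml EMI2, GPM2, NQM1, PRS2 and SNF1 were under 0.05 before adjustment (adjusted p = 0.761). All 5 are numbered between 4500 and 6500, where low values of the 10 pair were frequent. Between the label series 8 of the 28 were lower at label 10 and 2 higher, beside 5.18% each way over all tested probe sets and 67 lower and 6 higher of the 696 bright ones, and 0 of the 11 regulators passed. SNF1, at -0.92 (adjusted p = 0.112), and MSN2, at -0.79, were under 0.05 before adjustment. PGM2, the main phosphoglucomutase, was lower, at -1.59 (adjusted p = 0.00820), with 5265.3 and 5252.5 on the A100 and B100 controls and 1604 on control 10. EMI2, a hexokinase-like paralogue of GLK1, was at -1.55 and NQM1, a transaldolase paralogue of TAL1, at -1.32. ALD3, a cytosolic aldehyde dehydrogenase, was at -2.34, with 7362.3 and 8943.5 on the A100 and B100 controls against 1329.2 on control 10. ALD4, a mitochondrial one, was at -0.85, while GPM2, SOL1 and SOL2 were at -1.27, -1.22 and -1.35. ALD5, another mitochondrial aldehyde dehydrogenase, was higher at 2.17 (59.5 and 13.7 on the A100 and B100 controls, 306.7 on control 10), and PRS4, a phosphoribosyl pyrophosphate synthetase, at 0.98. With a pseudocount of 1, limma did not call ALD5 (adjusted p = 0.0538). With no filter on low signals it did not call ALD5, GPM2, NQM1 or SOL1 (adjusted p = 0.0585, 0.0509, 0.0550 and 0.0629). None of these 10 calls remained without treated 10 or among controls alone, where limma called 0 probe sets (1490 and 1484 under 0.05 before adjustment); GPM2 was then at -0.75, NQM1 at -0.89 and PGM2 at -1.70.

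Treated-minus-control values of at least 2-fold among the 28 related genes lay mostly in the A100 pair, as they did over all tested probe sets. In that pair 3 of the 28 were higher and 3 lower, beside 10.7% and 6.12% of all tested probe sets. SHB17, a sedoheptulose bisphosphatase that feeds ribose synthesis, gave 73.3 on control and 300.3 on treated A100, 72.2 and 70.6 in the B100 pair, and 186.5 and 212.1 in the 10 pair. PRS3 gave 278.5 and 845.2, 389 and 438.9, and 600.7 and 726.7, with treated A100 the highest of its arrays. In that pair PFK27, a kinase making the phosphofructokinase activator fructose 2,6-bisphosphate, was at 1.11 and its counterpart PFK26 at -1.38. The PFK27 signals were low, 38.6 on control and 102.1 on treated A100. ALD2 and ALD3 were at -1.30 and -1.31. In the B100 pair, where 2.06% of tested probe sets were at least 2-fold higher, ALD5 was at 1.46. Its signals there were 13.7 on control, below the pseudocount of 16, and 65.6 on treated. In the 10 pair, where 2.4% were at least 2-fold lower, NQM1 was at -1.43 and the glucose-derepression kinase gene SNF1 at -1.17. Both are numbered between 4500 and 6500, where 5.74% of probe sets were that much lower, against 1.4% elsewhere. TAL1 minus NQM1 was 1.28, 0.24 and 1.51 in the A100, B100 and 10 pairs. GCR1 and GCR2, activators of glycolytic genes, had pair values from -0.48 to 0.33. Of the other regulators, RAP1 was at -0.54, -0.88 and -0.53 in the A100, B100 and 10 pairs. TYE7, with signals of 26.2 to 61.7, was at -0.82, -0.33 and 0.17. Values were negative in all 3 pairs for 2 of the 11 regulators, beside 12.2% of all tested probe sets. Over the 3 pairs together, limma had RAP1, PFK26, NQM1 and ALD3 under 0.05 before adjustment (adjusted p = 0.584), beside 8.05% of tested probe sets.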

How the data were processed

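Transcripts were measured on 6 one-colour Affymetrix arrays. The deposited values are intensity values, 1 linear signal per probe set, computed by the authors in MAS5 according to the submitters' processing notes; the sources used here do not give its version, its scaling target or its background settings. The 2% trimmed mean was 500.317 to 500.404 on every array, so no further scaling was applied. Control probe sets (60) and the 25% with the lowest mean were left out, leaving 6956. Values were taken as log2(signal + 16) and tested with limma 3.58.1 in R 4.3.3 (moderated test, variance trended with signal), with Benjamini-Hochberg adjustment over the 6956. The doses were tested in 1 fit with a mean per group (3, 2 and 1 arrays, 3 residual degrees of freedom), the label series with treatment as a term, and all 3 treated arrays with the label as a block (2 residual degrees of freedom). Names came from the platform annotation; of the tested probe sets 5670 had 1 gene, 282 several and 1004 none. For TKL2, the probe set with the highest mean stands for the gene. The scripts were tested on simulated data with large planted changes and the same spread for every probe set. That check concerns the code and does not show the power for smaller differences in these data.

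The genes, lists and tests were chosen with earlier results of these data known. Signals on all arrays are given for genes of the 3 pathways that differed by at least 1 (log2) in a pair or between label series, and for their isoenzymes. Related genes and regulators that differed as much are named, mostly with log2 values alone. A probe set shared by ERR1, ERR2 and ERR3 was at -1.02 in the A100 pair and -1.48 between label series. ENO2, PGK1, TDH3, TPI1, PDC1, ADH1, ADH5, ZWF1, PGI1 and the genes under 0.05 before adjustment were added after their values were seen. Alternatives were other scalings, pseudocounts (1 and 64), filters, variance models, control sets, the block, and each array left out. The number of arrays limits the precision. No promoter or protein sequence was analysed here.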

Additional observations from a re-analysis of the deposited data

How the results depend on the processing

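The dose comparisons stayed at 0 calls in limma under the other scalings, pseudocounts, filters and variance models and with controls of the same series, and the calls that arose when an array was left out were few: 0 to 4 at 10 µg/ml (4 without control 10), and 0 to 1 over the 3 pairs (1 without control A100 and 1 without treated A100). The deviations of the A100 and B100 arrays correlated at -0.0708 between treated and control, so the dose fits did not treat these labels as paired. The treated-minus-control values and the test over the 3 pairs did pair arrays by label. For A100 and B100 this check did not bear that pairing out. The arrays labelled 10 were alike (0.9699) and could not enter this check. With the label as a replicate block, 100 µg/ml gave 0 calls (473 probe sets under 0.05 before adjustment, lowest adjusted p 0.649) and 10 µg/ml gave 0 (188, 0.998); the 3 pairs without the replicate block gave 0 (218, 0.960). The label-series comparison moved most: 720 calls became 479 without a filter, 0 among controls alone, and 0 to 2033 with 1 array left out (20 without control A100, 59 without control B100, 231 without treated B100, 5 without control 10, 0 without treated 10, 2033 without treated A100). Its 5 pathway genes became 0 among controls alone, 0 to 12 with 1 array left out, and 2 of 22 without probe sets numbered 4500 to 6500, a range chosen after seeing the data; that removes HXK1, PFK1 and SOL4 themselves, and RKI1 and TKL2 outside it remained called. Among values of single genes under all alternatives, 3207 kept their side of the threshold or moved by less than the spread, 78 lost a call, 13 gained one, 206 moved by more than the spread and 0 reversed a called direction. Signals of PDC6 and RKI1 were below 100 on 4 or more arrays and lie closest to the pseudocount of 16.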
